A study of Mus musculus with 2 samples.

Results

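The miR-30 family is a set of microRNAs made from 6 hairpins, and 9 of its mature arms were followed here among the 1909 mature microRNAs counted in each library. Members were chosen by name: the 5p arms mmu-miR-30a-5p, mmu-miR-30b-5p, mmu-miR-30c-5p, mmu-miR-30d-5p and mmu-miR-30e-5p, and the 3p arms mmu-miR-30a-3p, mmu-miR-30b-3p, mmu-miR-30d-3p and mmu-miR-30e-3p, written below without the species prefix. Small RNA was sequenced from vascular smooth muscle cells cultured from the thoracic aorta of male mice aged 10 to 12 weeks. The diabetic group was db/db on BKS.Cg-m+/+Leprdb/J. In db/db mice both copies of the leptin receptor gene carry the db mutation, and the mouse becomes obese and develops type 2 diabetes. The control group was db/+, labelled Lepr+/-, which carries 1 such copy and is not labelled diabetic. Both cultures grew in DMEM/F-12 medium with 10% fetal bovine serum and antibiotics, so the cells were measured in culture and not in the vessel. Each group had 1 library, and the sources used here do not give the number of mice behind a culture. The question was which microRNAs differ between diabetic and control cells. With 1 library per group no difference between genotypes could be tested, and each ratio below compares these 2 libraries.

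A microRNA hairpin is cut into a short duplex, and usually one strand, the guide, is loaded into Argonaute while the other, the passenger, is degraded. The guide finds its target messenger RNAs mainly through its seed, bases 2 to 8. In the miR-30 family the 5p arms are the usual guides and share one seed. The family is known for repressing Ccn2 (connective tissue growth factor), Snai1, a driver of epithelial-to-mesenchymal transition, and Runx2, the transcription factor that starts bone formation. In smooth muscle cells miR-30b and miR-30c are studied as brakes on Runx2 and so on calcification of the vessel wall.

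Of the 9 members, 5 had a mature sequence in the RefSeq table for GRCm38.p6. They are shown 5′ to 3′ with the seed in capitals, because the seed separates the 5p arms, which act as one family, from the 3p arms, which do not share it:
miR-30a-5p: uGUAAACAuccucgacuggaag
miR-30e-5p: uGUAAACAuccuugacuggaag
miR-30c-5p: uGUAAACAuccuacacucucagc
miR-30a-3p: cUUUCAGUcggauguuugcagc
miR-30e-3p: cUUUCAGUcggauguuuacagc
The 3p arms of the miR-30c hairpins are not among the 9 members, but they are listed in the files and are shown because they are the partners of miR-30c-5p:
miR-30c-1-3p: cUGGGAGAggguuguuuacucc
miR-30c-2-3p: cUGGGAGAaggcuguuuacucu

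The 3 printed 5p arms had the seed GUAAACA, the 3p arms of miR-30a and miR-30e had UUUCAGU, and the 3p arms of miR-30c had UGGGAGA. Another microRNA with the 5p seed, miR-384-5p, had 0 counts in both libraries, so all reads counted on matched names with that seed were on miR-30 names. Counted from 1 at the 5′ end, miR-30a-5p and miR-30e-5p differed by 1 substitution, C13U, and their 3p arms by 1, G18A. The first 12 bases of miR-30a-5p and miR-30c-5p were the same. The sources used here do not give how the authors assigned reads that match several such names, so the split between near-identical names is uncertain. No miR-30 name with at least 50 counts in a library had counts identical to another name, as 24 names in 11 groups did. The printed 5p arms began with U and the 3p arms with C. Among the 143 5p names that have a RefSeq sequence and reached 50 counts in a library, 46.9% began with U, and among 135 such 3p names 23.7% began with C.

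The hairpins lie in 3 pairs on the mouse genome (GRCm38, also called mm10). Mir30a (chr1:23272269-23272339, plus strand) lies 19.4 kb from Mir30c-2 (chr1:23291701-23291784), which overlaps an exon of the long non-coding RNA gene Gm27028 on the same strand. Mir30c-1 (chr4:120769534-120769622, minus strand) and Mir30e (chr4:120772606-120772697) lie 2.98 kb apart, each inside an intron of Nfyc, which encodes a subunit of the CCAAT-binding factor NF-Y, on the same strand. Mir30b (chr15:68337415-68337510, minus strand) and Mir30d (chr15:68341208-68341289) lie 3.70 kb apart, the second overlapping an exon of the long non-coding RNA gene Gm20732. The mature miR-30c-5p is encoded by both Mir30c-1 and Mir30c-2, and its reads cannot be divided between them. The hairpins of miR-30a and of miR-30c-2 are shown with both mature arms in capitals, since the first gave mostly 5p reads and the second is a source of an abundant 3p arm:
Mir30a: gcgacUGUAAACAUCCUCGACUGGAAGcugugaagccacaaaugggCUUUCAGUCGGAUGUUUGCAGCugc
Mir30c-2: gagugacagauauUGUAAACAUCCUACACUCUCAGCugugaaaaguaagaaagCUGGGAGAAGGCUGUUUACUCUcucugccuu

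The db/+ library held 25915732 microRNA counts and the db/db library 24295112. Levels are given as CPM, counts per 1e6 mature microRNA counts of the library, with exact 95% counting intervals. No molecular identifiers mark PCR copies among the reads, so these intervals cover counting error only and leave the spread among mice or cultures unmeasured. In bulk RNA, fewer cells that express a microRNA and less of it per cell cannot be told apart. The 4 smooth muscle marker arms, both arms of miR-143 and miR-145a, summed to 1656 CPM in db/+ cells and 1567 CPM in db/db cells. Of these arms, 1 had a db/db over db/+ ratio above 1, miR-143-5p at 1.32 (1.24 to 1.41). The other 3 were below 1, the lowest miR-145a-5p at 0.795 (0.771 to 0.819). The 2 endothelial arms of miR-126a had 7 and 71 counts in total (0.270 and 2.92 CPM). For miR-126a-5p there were 2 and 58 counts (ratio 30.9, 8.19 to 261), and for miR-126a-3p 5 and 13 (ratio 2.77, 0.928 to 9.94). The 5 blood and immune names had 18 and 16 counts, with miR-142a-3p, miR-223-3p and miR-144-3p at 0 in both. The 7 epithelial names summed to 12 and 29 counts, and the 6 striated muscle names to 2509 and 2833 CPM, nearly all on miR-206-3p. In that list miR-1a-3p had 920 and 1664 counts (ratio 1.93, 1.78 to 2.09), while miR-133a-3p had 1 and 1 count and miR-208a-3p and miR-208b-3p had 0. The part of the endothelial, epithelial and striated muscle names in the miR-30 values was not tested.

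The 9 members together held 0.241% of the microRNA counts in db/+ cells and 0.233% in db/db cells, and most of this was on 2 guide strands. The most abundant was miR-30a-5p, with 36157 counts in db/+ cells and 34377 in db/db cells, or 1395 CPM (95% interval 1381 to 1410) and 1415 CPM (1400 to 1430.01). It ranked 27 among the 1909 names in db/+ cells and 25 in db/db cells. The second, miR-30d-5p, had 20720 and 17092 counts, or 799.5 CPM (789 to 810.5) and 703.5 CPM (693 to 714). It ranked 37 and 34, and its 2 intervals did not overlap. The other guides were far lower, although they carry the same first bases as miR-30a-5p where the sequence is shown.

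For miR-30e-5p there were 1458 and 1007 counts, or 56.3 CPM (53.4 to 59.2) in db/+ cells and 41.4 CPM (38.9 to 44.1) in db/db cells. The calcification-linked miR-30c-5p had 940 and 854 counts, or 36.3 CPM (34.0 to 38.7) and 35.2 CPM (32.8 to 37.6). Its partner in that role, miR-30b-5p, had 143 and 98 counts, or 5.52 CPM (4.65 to 6.50) and 4.03 CPM (3.27 to 4.92). The order of the 5p levels was therefore miR-30a, miR-30d, miR-30e, miR-30c and miR-30b in both libraries, with no overlap between the intervals of neighbours in either. This is an order of read counts, and mature arms of 22 or 23 bases need no correction for length. How evenly different sequences were captured in the libraries was not measured, and the counting intervals do not cover it.

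Among the passenger strands, miR-30a-3p had 2776 and 2906 counts, or 107 CPM (103 to 111) in db/+ cells and 119.6 CPM (115 to 124) in db/db cells. It thus stood above the guides miR-30e-5p, miR-30c-5p and miR-30b-5p in both libraries. The next, miR-30e-3p, had 169 and 134 counts (6.52 and 5.52 CPM), and miR-30b-3p had 150 and 160 counts (5.79 and 6.59 CPM). Their intervals overlapped each other in each library, and their order was opposite in the 2 libraries. The least abundant member, miR-30d-3p, had 1 count in db/+ cells and 4 in db/db cells, beside the 20720 and 17092 counts of its guide.

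**Figure D1:**
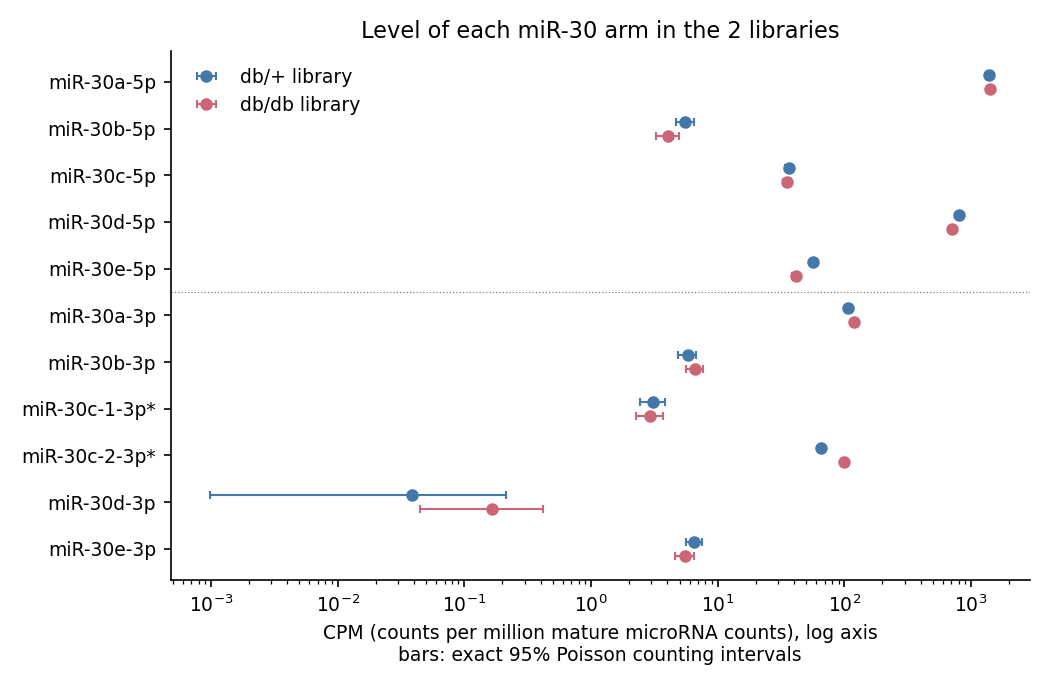
Level of each miR-30 arm in CPM on a log axis (horizontal) in the db/+ and db/db libraries, with exact 95% Poisson counting intervals as bars; asterisks mark the 3p arms of miR-30c, which are not among the 9 members. Levels run from 0.0386 CPM for miR-30d-3p in db/+ cells to 1415 CPM for miR-30a-5p in db/db cells, and the 2 libraries lie close together for most arms.

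In the comparison of db/db with db/+, no member with adequate counts differed 2-fold between the libraries. Of the 9 members, 8 had at least 50 counts in a library, and 0 of these 8 had a ratio of at least 2 or at most 0.5, beside 18.0% of all 356 microRNAs past that floor. Nor did any of the 8 pass 1.5-fold in either direction, as 37.6% of the 356 did. The median log2 ratio of the 8 (db/db over db/+, 0.5 counts added) was -0.11, beside -0.14 for all 356. The 8 log2 ratios ran from -0.45 to 0.19, and the quartiles of all 356 were -0.55 and 0.30. The counting interval of the ratio lay below 1 for 3 of the 8 members, beside 44.1% of all 356, and above 1 for 1 of the 8, beside 31.7%. With 4 other scalings (edgeR TMM, DESeq2, upper quartile and the deposited normalized reads) the counts were 2 below and 2 above, beside 38.8 to 39.3% and 36.2 to 36.8% of all 356. The deposited reads are TMM values too and gave nearly the same ratios as edgeR TMM, so these 2 are not separate choices. With the total taken without the 10 most abundant microRNAs they were 3 below and 2 above, beside 40.7% and 35.4%.

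Of the 5 guide strands, 4 had ratios below 1 with total counts and 3 under each of the 5 other scalings. With total counts, 97 of all 177 5p names past the floor had ratios below 1. The lowest ratios were 0.731 (95% interval 0.559 to 0.952) for miR-30b-5p and 0.737 (0.679 to 0.799) for miR-30e-5p. For miR-30b-5p, on few counts, the interval reached past 1 under those 4 scalings, for example 0.777 (0.594 to 1.01) with edgeR TMM. The ratio of miR-30e-5p was between 0.767 and 0.788 under the 5 other scalings, with every interval below 1. The abundant miR-30d-5p had a ratio of 0.880 (0.862 to 0.898) and 0.917 to 0.941 under the other scalings, again with intervals below 1. For miR-30c-5p the ratio of 0.969 (0.882 to 1.06) had an interval that included 1, as it did under every other scaling, where the ratio lay above 1 (1.01 to 1.04).

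The most abundant guide differed from miR-30b-5p, miR-30d-5p and miR-30e-5p in its ratio, but not beyond counting error from miR-30c-5p. For miR-30a-5p the ratio was 1.01 (0.999 to 1.03), and 1.06 to 1.08 with intervals above 1 under the 5 other scalings. The interval of miR-30a-5p did not overlap that of miR-30d-5p, that of miR-30e-5p or, on few counts, that of miR-30b-5p. A ratio between 2 names does not depend on scaling. As a result the makeup of the guide pool differed slightly. This lay mainly among miR-30a-5p, miR-30d-5p and miR-30e-5p, which together held 98.18% of the 5p counts in db/+ cells and 98.22% in db/db cells. How the authors split reads among such names is not given, so this difference is uncertain. The share of miR-30a-5p in all 5p counts of the family was 60.9% (60.5 to 61.2) in db/+ cells and 64.3% (63.9 to 64.7) in db/db cells. The share of miR-30d-5p was 34.9% (34.5 to 35.3) and 32.0% (31.6 to 32.4), and that of miR-30e-5p 2.45% (2.33 to 2.58) and 1.88% (1.77 to 2.004). For miR-30c-5p the shares were 1.58% and 1.598%, and for miR-30b-5p 0.241% and 0.183%, with overlapping intervals for both.

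Of the 4 passenger strands, 3 passed the floor. Of these, 2 had ratios above 1 with total counts and under the 5 other scalings. Only the interval of miR-30a-3p excluded 1. With total counts, 66 of all 168 3p names past the floor had ratios above 1. For miR-30a-3p the ratio was 1.12 (1.06 to 1.18), and for miR-30b-3p 1.14 (0.905 to 1.43), an interval that included 1. The ratio of miR-30e-3p was 0.846 (0.669 to 1.07). For miR-30d-3p, on 1 and 4 counts, the ratio of 4.27 had an interval from 0.422 to 210.1, so no difference was detectable at this depth. Ratios past 2-fold are common without a floor on counts, at 44.5% of the 967 microRNAs detected in a library. Outside the 9 members, miR-30c-2-3p had 1708 and 2415 counts, or 65.9 and 99.4 CPM, and the highest ratio among miR-30 names past the floor, 1.51 (1.42 to 1.61). Its paralogue miR-30c-1-3p had 80 and 71 counts and a ratio of 0.947 (0.678 to 1.32). The last miR-30 name, miR-30f, which lies opposite Mir30e on the other strand, had 0 counts in both libraries, which allows up to 0.116 CPM in db/+ cells and 0.123 CPM in db/db cells when a count of 0 is taken to allow 3.

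**Figure D2:**
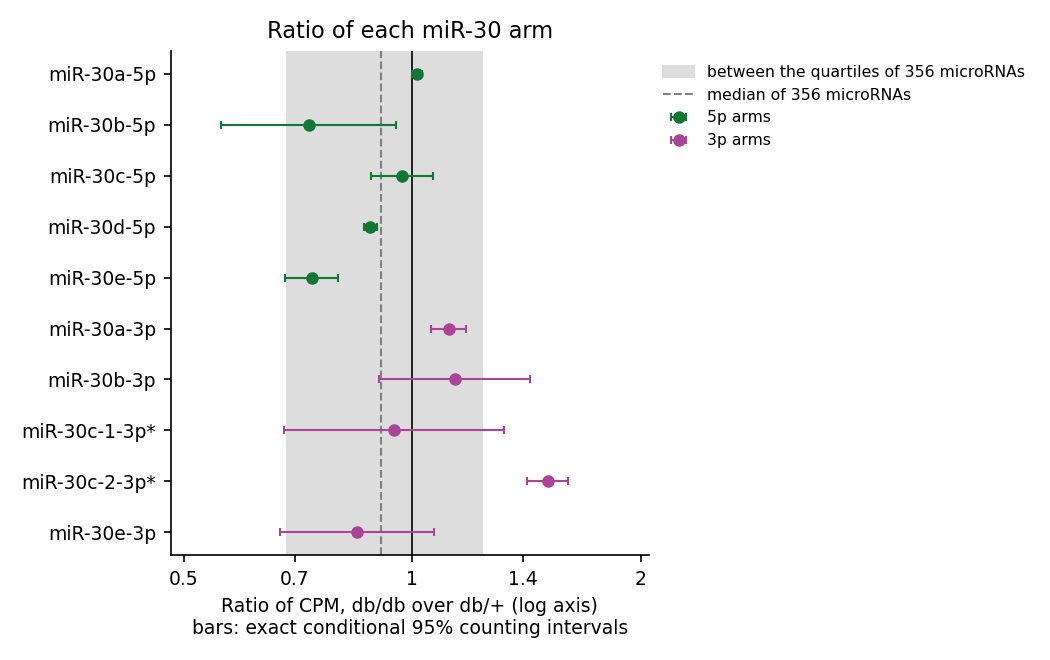
Ratio of CPM in db/db over db/+ (horizontal, log axis) for each miR-30 arm with at least 50 counts in a library, with exact conditional 95% counting intervals as bars; the grey band and dashed line are the range between the quartiles and the median of all 356 such microRNAs, and asterisks mark arms outside the 9 members. All 8 members lie inside the band, while miR-30c-2-3p, at 1.51, lies outside it.

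Each 3p name belongs to a single hairpin, whereas miR-30c-5p is encoded by both Mir30c-1 and Mir30c-2. The names miR-30a-3p and miR-30e-3p differ by 1 substitution, so the split of their reads between chromosome 1 and chromosome 4 is uncertain. The 3p arms of the chromosome 1 pair, miR-30a-3p and miR-30c-2-3p, summed to 4484 counts in db/+ cells and 5321 in db/db cells, a ratio of 1.27 (1.22 to 1.32). Those of the Nfyc pair on chromosome 4, miR-30e-3p and miR-30c-1-3p, summed to 249 and 205 counts, a ratio of 0.878 (0.726 to 1.06). Those of the chromosome 15 pair, miR-30b-3p and miR-30d-3p, summed to 151 and 164 counts, a ratio of 1.16 (0.923 to 1.45). Within the chromosome 1 pair the ratio of miR-30c-2-3p was higher than that of miR-30a-3p, at 1.51 beside 1.12. The pairs were put together after their values were seen, so these sums are a description only.

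Summed over members, the 5 guide strands and the 4 passenger strands lay on opposite sides of 1 when counts were scaled to the library total. The 5p arms summed to 59418 counts in db/+ cells (2293 CPM) and 53428 in db/db cells (2199 CPM), a ratio of 0.959 (0.948 to 0.970), but the ratio was 1.02 to 1.03 under 4 other scalings and 0.999 without the 10 most abundant microRNAs, so its direction depended on scaling. The 3p arms summed to 3096 counts (119 CPM) and 3204 (132 CPM), a ratio of 1.10 (1.05 to 1.16), and 1.15 to 1.18 under the 5 other scalings. The 3p sum rested on miR-30a-3p, and without it the ratio was 0.993 (0.846 to 1.17). Without miR-30a-5p the 5p ratio was 0.874 (0.857 to 0.891). There were 19.2 5p reads per 3p read in db/+ cells and 16.7 in db/db cells, a comparison within each library that needs no scaling. That count sets miR-30c-5p among the 5p arms without its 3p arms, and with them added there were 12.2 and 9.39 5p reads per 3p read.

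**Figure D3:**
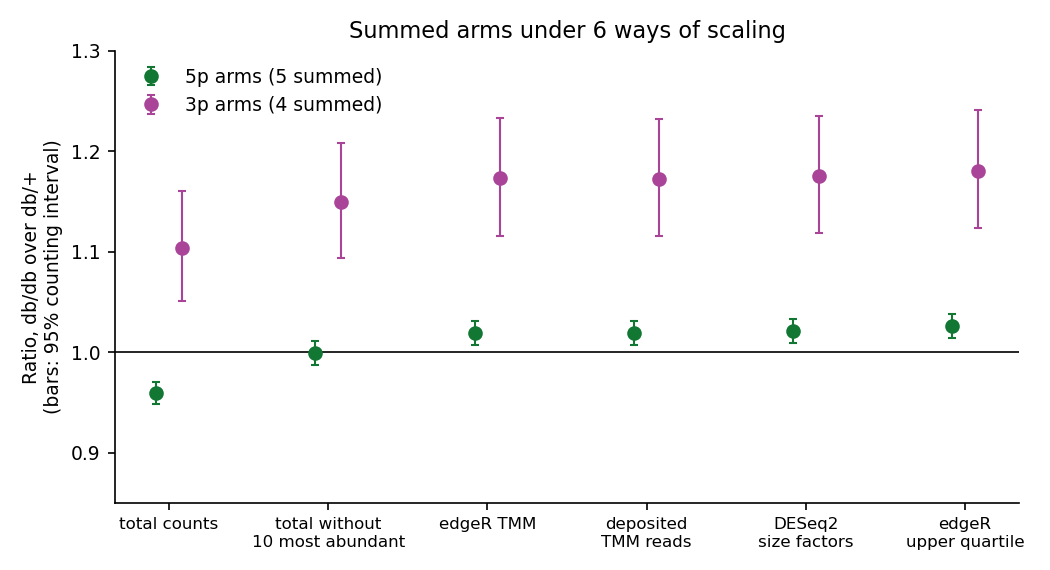
Ratio of summed counts in db/db over db/+ (vertical) for the 5 5p arms and the 4 3p arms under 6 ways of scaling the libraries, with 95% counting intervals as bars. The 3p sum lies above 1 under all 6 scalings, while the 5p sum is 0.959 with total counts and 1.02 to 1.03 under 4 others. The 5 other scalings all raised ratios, by a factor of 1.04 to 1.07. Each multiplies both sums alike, so the order of the 2 sums is fixed and is not a repeated observation.

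Arm usage was compared as the 5p share of a hairpin's counts, with exact binomial (Clopper-Pearson) 95% intervals. The hairpins of the family differed widely in the 5p share of their reads. In db/+ the 5p share was 99.995% for miR-30d (20720 of 20721 counts), and in db/db cells 99.98% (17092 of 17096). The background was 204 hairpins with a 5p and a 3p name of the same stem, whose arms together reached 50 counts in each library. Hairpins whose arm names differ by a hairpin number, such as let-7c-5p with let-7c-1-3p and let-7c-2-3p, were left out. Of the 204, 17, with miR-30d itself, had a mean 5p share at least as high as that of miR-30d. The share for miR-30a was 92.9% (92.6 to 93.1) in db/+ cells and 92.2% (91.9 to 92.5) in db/db cells, and that for miR-30e 89.6% (88.0 to 91.1) and 88.3% (86.2 to 90.1).

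By contrast, miR-30b gave nearly equal arms in db/+ cells, with a 5p share of 48.8% (42.9 to 54.7) of 293 counts, and 38.0% (32.0 to 44.2) of 258 counts in db/db cells. Of the 204 hairpins, 12 had a mean 5p share between 40 and 60%. The miR-30b hairpin, neighbour of Mir30d on chromosome 15, thus gave more 3p than 5p reads in both libraries, with an interval that included 50% in db/+ cells. In miR-30c, where the 3p arms of both hairpins were added, the 5p share was 34.5% (32.7 to 36.3) of 2728 counts in db/+ cells and 25.6% (24.1 to 27.1) of 3340 in db/db cells. The 3p arm miR-30c-2-3p alone had more reads than miR-30c-5p in both libraries.

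The 5p share was lower in the db/db library for each of the 4 hairpins with both arms among the members, beside 47.5% of all 204 hairpins. The differences were -0.66 percentage points for miR-30a, -10.8 for miR-30b, -0.0186 for miR-30d and -1.36 for miR-30e. For miR-30c, counted over both its hairpins, the difference was -8.89 points. The quartiles of all 204 differences were -0.84 and 1.06 points. A difference of at least 10 points was reached by 1 of the 4, miR-30b, beside 9.8% of the 204. Its 2 intervals overlapped. Intervals were apart, with the lower share in db/db cells, for 1 of the 4, miR-30a, beside 13.2% of the 204. They were also apart for miR-30c.

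**Figure D4:**
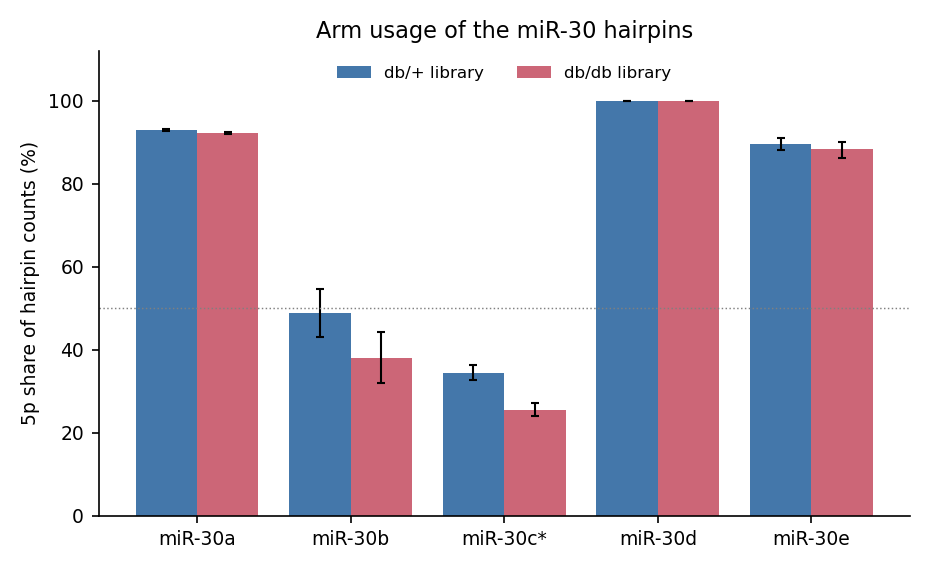
Share of the 5p arm in the counts of each miR-30 hairpin (vertical, percent, from 0) in the db/+ and db/db libraries, with exact binomial 95% intervals; the asterisk marks miR-30c, where the 3p arms of both hairpins were added. The share is above 88% for miR-30a, miR-30d and miR-30e and below 50% for miR-30b and miR-30c, and the db/db bar is the lower of each pair.

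In ratios, the 3p arm had a higher ratio than the 5p arm in all 3 member hairpins with both arms past the floor. These were miR-30a, miR-30b and miR-30e. Among the 204 hairpins, 81 had both arms past the floor, and the 3p ratio was higher in 54.3% of them. For a single hairpin this restates the lower 5p share in db/db cells given above and is not a second observation. The log2 ratio of the 3p arm exceeded that of the 5p arm by 0.14 in miR-30a, 0.64 in miR-30b and 0.20 in miR-30e. Over the 81 hairpins the median excess was 0.10 and the quartiles were -0.45 and 0.51, so only miR-30b lay outside them among these 3. Set against miR-30c-5p, the excess was 0.64 for miR-30c-2-3p and -0.03 for miR-30c-1-3p.

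**Figure D5:**
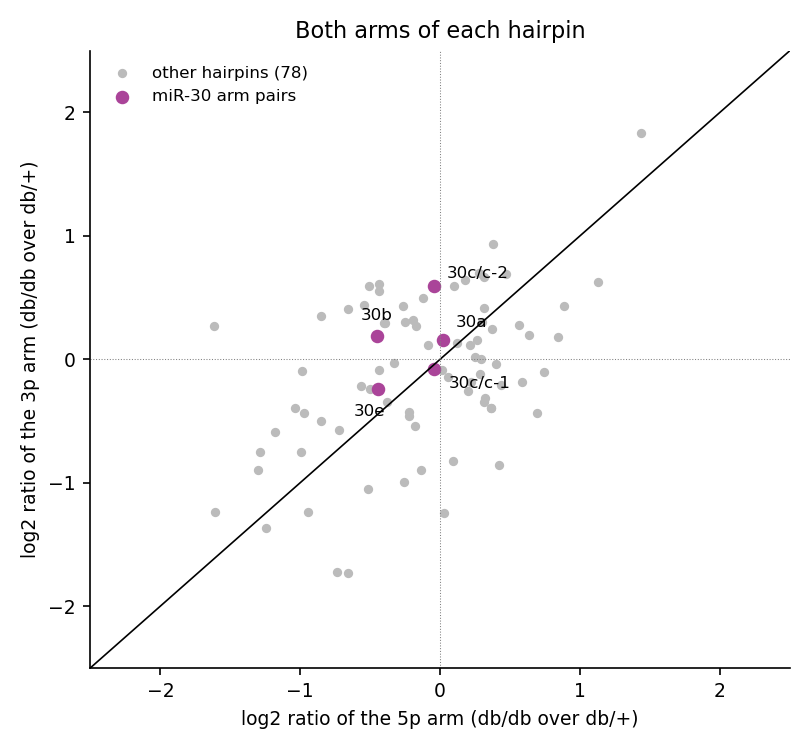
Log2 ratio (db/db over db/+) of the 5p arm (horizontal) and of the 3p arm (vertical), with the line of equal ratios. Shown are those of the 204 hairpins with both arms at 50 counts or more in a library, and miR-30c. The miR-30 pairs are in colour and 78 other hairpins in grey (1 lies outside the axes). The pairs of miR-30a, miR-30b, miR-30e and miR-30c with its c-2 3p arm lie above the line, within the spread of the grey points.

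The microRNAs most like the most abundant 5p arm and the most abundant 3p arm were found by the distance of log2 CPM over the 2 libraries, which describes 2 values only. Nearest to miR-30a-5p were miR-152-3p (distance 0.19, ratio 0.871), miR-1839-5p (0.30, ratio 1.02) and miR-143-3p (0.35, ratio 0.971), the last a defining microRNA of smooth muscle at 1202 and 1167 CPM. Nearest to miR-30a-3p were miR-382-3p (0.14, ratio 1.21), miR-193b-5p (0.15, ratio 1.19) and miR-495-3p (0.18, ratio 0.978).

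Other microRNAs linked to matrix and to calcification were given by 2 lists, chosen with earlier results of these data known. Among names past the floor, both lists had a lower median ratio than the miR-30 members. Of 10 names in the matrix and fibrosis list, 7 passed the floor, and the interval lay below 1 for 6 of them and above 1 for 0, beside 44.1% and 31.7% of all 356. Their median log2 ratio was -0.51, beside -0.11 for the miR-30 members and -0.14 for all 356. In that list the collagen-targeting miR-29a-3p had 19498 and 16771 CPM (ratio 0.860), miR-29c-3p a ratio of 0.597 and miR-21a-5p a ratio of 0.706, while miR-101a-3p had 1.05 (0.993 to 1.12). Below the floor, miR-200a-3p (3 and 12 counts) and miR-200b-3p (0 and 7 counts) had intervals above 1. Of 12 names in the osteogenic and calcification list, 5 passed the floor, with intervals below 1 for 4 and above 1 for 1, miR-125b-5p at 1.01 (1.001 to 1.02), beside the same shares of all 356. The median log2 ratio of these 5 was -0.51. The Runx2-targeting miR-204-5p, often studied beside miR-30b and miR-30c in calcifying smooth muscle, had 0 counts in both libraries. The lists share miR-29a-3p and miR-29b-3p among the names past the floor, so they are not independent of each other.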

How the data were processed

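The authors deposited raw read counts per mature microRNA and TMM-normalized reads, per the file headers, for 1909 names in each of 2 libraries. The normalized reads are a score, made by the authors with TMM scaling before the data were deposited, per the file headers. They had a median of 0.939 times the raw count in db/+ and 1.06 times in db/db. Being whole numbers, these scores were put through the same ratio and interval calculation as raw counts. Intervals for the deposited normalized reads are therefore approximate, because rescaled values are not counts. Novoalign, edgeR and mm10 are named in the submitters' processing notes, while how reads were trimmed, matched or split among names is not given in the sources used here.

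Counts were scaled to the library total of 25915732 or 24295112. Ratios of raw counts carry exact conditional and shares exact binomial 95% intervals (scipy 1.17.1). A quasi-likelihood test in edgeR needs replicates, which 1 library per group does not give, so there are no p-values. A size rule took ratios of at least 2 or at most 0.5 with at least 50 counts in a library. Alternatives used factors of edgeR 4.0.16 and DESeq2 1.42.0. Only the coverage of the ratio and share intervals was tested on simulated counts. Members, lists and rules were chosen with earlier results of these data known. Named microRNAs were the members, other miR-30 names, names sharing a seed with them, the 3 nearest to the most abundant 5p and 3p arm, and the listed marker, matrix and calcification names. Mature sequences came from RefSeq (GRCm38.p6), which matched 1623 of the 1909 names, and host genes from GENCODE M21.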

Additional observations from a re-analysis of the deposited data

How the results depend on the processing

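Other scalings shifted the median log2 ratio of the 356 microRNAs by 0.06 to 0.10. The 5p sum, 0.959 with total counts, was 1.02 with edgeR TMM (1.019), DESeq2 (1.021) and the deposited normalized reads (1.019), 1.03 with upper-quartile factors, 0.999 without the 10 most abundant microRNAs and 0.874 without miR-30a-5p. The 3p sum, 1.10 with total counts, was 1.17 with edgeR TMM (1.173) and the deposited reads, 1.18 with DESeq2 (1.175) and upper-quartile factors (1.181), 0.993 without miR-30a-3p and 1.24 with the 3p arms of miR-30c added. With no floor on counts, 1 member, miR-30d-3p, passed 2-fold. The share of miR-30a, miR-30d and miR-30e pooled in the 5p counts differed by 0.0408 points, beside 3.49 points for miR-30a-5p alone. Of values for single members, 14 left their counting interval, all of them ratios of miR-30a-5p, miR-30a-3p or miR-30d-5p under another scaling and none of them crossing 1, and 53 stayed inside it. The number of ratios above 1 was 4 of 9 with total counts and 5 under each other scaling. Counts of 1 to 4 for miR-30d-3p and about 100 to 160 for the arms of miR-30b set the width of their intervals. No paired analysis was possible because there was only 1 library for each genotype, which also prevents leaving one out.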
